A study of Mus musculus with 16 samples.

Results

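The fibronectin gene Fn1 and 8 genes for integrin subunits, Itga3, Itga5, Itga6, Itgav, Itgb1, Itgb3, Itgb4 and Itgb5, were followed across 4 kinds of mouse pluripotent stem cell culture. The genes were found by matching the RefSeq accession of each array probe to a reference gene table, which gave 12 probes of the 55681 on the array and 9 of the 20972 genes that could be named. Itgav, Itgb1 and Itgb3 had 2 probes each and the other 6 genes 1 probe. The first probe of each gene, the brighter where there were 2, was well above background on all 16 arrays, and no member probe value was missing.

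RNA was measured on 16 single-colour Agilent arrays, 4 lines for each of 4 culture groups, and all lines shared the 129/Ola strain background. The LIF serum group was derived from embryos before implantation and grown in serum with LIF, a cytokine that supports self-renewal, and the labels call it naive. The mEpiSCs came from the epiblast of E6.5 embryos, just after implantation, were grown with Activin A and bFGF, and are labelled primed. The 2i mESCs and 2iSB mESCs also came from embryos before implantation and are labelled ground state: both media held LIF and the 2i pair of inhibitors, in general use blockers of the kinases MEK and GSK3, and the second also held SB431542, an inhibitor of the Activin, Nodal and TGF-beta type I receptors. In array order the passage numbers were 23, 24, 26 and 26 for LIF serum, 24, 24, 24 and 28 for mEpiSCs, 24, 22, 23 and 22 for 2i mESCs, and 22, 17, 19 and 24 for 2iSB mESCs. LIF serum arrays 1 and 2 carry the code LS and arrays 3 and 4 the code LSFF, with no meaning given. The sources used here do not say on which surface each line was grown or whether feeder cells were present.

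The labelled cell types fitted their markers in part. The summed signal of 6 naive markers, among them Zfp42 and Esrrb, was 15.4 to 19.7 times the array's 75th percentile in mEpiSCs and 135 or more in every other array. Of these 6, 5 were called lower in mEpiSCs than in LIF serum, while Klf4 averaged 3.90 and 4.44 on the log2 scale. The pluripotency factor Pou5f1 lay between 5.25 and 6.39 on the log2 scale on all arrays. Among 5 pluripotency markers 2 were called lower in mEpiSCs than in LIF serum, Sox2 at 2.32 and 3.80 and Nanog at 2.20 and 3.28. Against LIF serum, Nanog was called higher and Lin28a lower in both ground-state groups. Of 6 primed markers, 4 were called higher in mEpiSCs than in LIF serum and 0 lower by limma. Fgf5 averaged 3.84 and -1.57 in these groups, whereas Otx2 averaged 3.80 and 4.66 and Dnmt3b 6.39 and 6.80. Markers of fibroblasts, the usual feeder cells, were also present: the summed signal of 20 such genes was 227 to 358 in mEpiSCs, 146, 115, 19.8 and 21.6 on LIF serum arrays 1 to 4, 4.35 to 6.03 in 2i mESCs and 4.17 to 5.87 in 2iSB mESCs. All 20 were well above background on every mEpiSC array, 15 to 20 on the LIF serum arrays, and 7 to 13 on the ground-state arrays. Lum, Postn, Twist2 and Prrx1 were above background on 0 of 4 arrays in both ground-state groups. The summed signal of 9 primitive endoderm markers was 1.40 and 1.67 on LIF serum arrays 1 and 2, 5.43 and 5.86 on arrays 3 and 4, 2.58 to 11.4 in mEpiSCs, 0.564 to 1.61 in 2i mESCs and 1.40 to 2.37 in 2iSB mESCs. In mEpiSCs against LIF serum 4 of these 9 were called higher and 1 lower. The sum of 5 trophectoderm markers was 0.784, 1.004, 2.42 and 2.46 on LIF serum arrays 1 to 4, 1.75 to 3.80 in mEpiSCs and at most 1.38 on the ground-state arrays. Against LIF serum, 1 of these 5 was called higher in mEpiSCs and 1 lower, with a median difference of -0.44. Eomes averaged 0.57 in mEpiSCs and -1.60 in LIF serum, whereas Hand1 averaged -6.41 and -2.45. In such bulk RNA, fewer cells of a type and less RNA per cell cannot be told apart. The arrays lay on 2 slides: all mEpiSC arrays were on slide 2, together with LIF serum arrays 3 and 4, 2i mESC array 4 and 2iSB mESC array 3.

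Integrins are receptors made of 1 alpha and 1 beta subunit that span the cell membrane, bind proteins of the extracellular matrix outside and connect to the actin skeleton or to keratin filaments inside. The pair of subunits sets the ligand: Itga5 with Itgb1 forms the classical fibronectin receptor, Itgav with Itgb3 or Itgb5 binds vitronectin and other proteins with an RGD motif, Itga3 or Itga6 with Itgb1 binds laminins, and Itga6 with Itgb4 forms the laminin receptor of hemidesmosomes. Fibronectin is the dimeric glycoprotein that Itga5 and Itgb1 assemble into fibrils. In the mouse embryo, laminin and fibronectin lie in the basement membrane under the epiblast, and embryos without Itgb1 fail around implantation.

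Signals are given as log2 of the background-subtracted intensity less the array's 75th percentile, so a value of 0 means the brightness of the 75th-percentile probe. Since each probe has its own brightness, levels are compared between arrays for 1 gene and not between genes. A gene was called, and is said to have risen or fallen, when limma's moderated test gave a Benjamini-Hochberg adjusted p under 0.05 over the 15510 genes tested and the difference was at least 2-fold, or 1 on the log2 scale.

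The 9 genes split into 3 patterns. In mEpiSCs against LIF serum, 6 integrin subunits rose, Itga3, Itga5, Itgav, Itgb1, Itgb3 and Itgb5, while Itgb4 fell and neither Fn1 nor Itga6 was called. Less the median of all genes, the 6 rises were 1.14 to 1.89. That makes 7 of 9 called, where 33.6% of all genes tested were called. 6 of 9 were called higher against 18.0% of all genes, and 1 of 9 lower against 15.6%. Of all calls in that comparison 53.4% were higher, and 75.9% with arrays scaled on their median, where the same 7 members were called. The median scaling called 6727 of all 15510 genes, 5108 of them higher, against 5212 and 2785 with the percentile scaling. The background for the 6 rises is therefore larger with the median scaling. The median difference over the 9 genes was 1.22, against 0.07 over all genes. For 8 of the 9 genes, all but Fn1, every array of 1 group lay above every array of the other, as was the case for 58.8% of all genes. In both ground-state groups Itga3 fell against LIF serum, and it was the only member called lower in either.

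**Figure D1:**
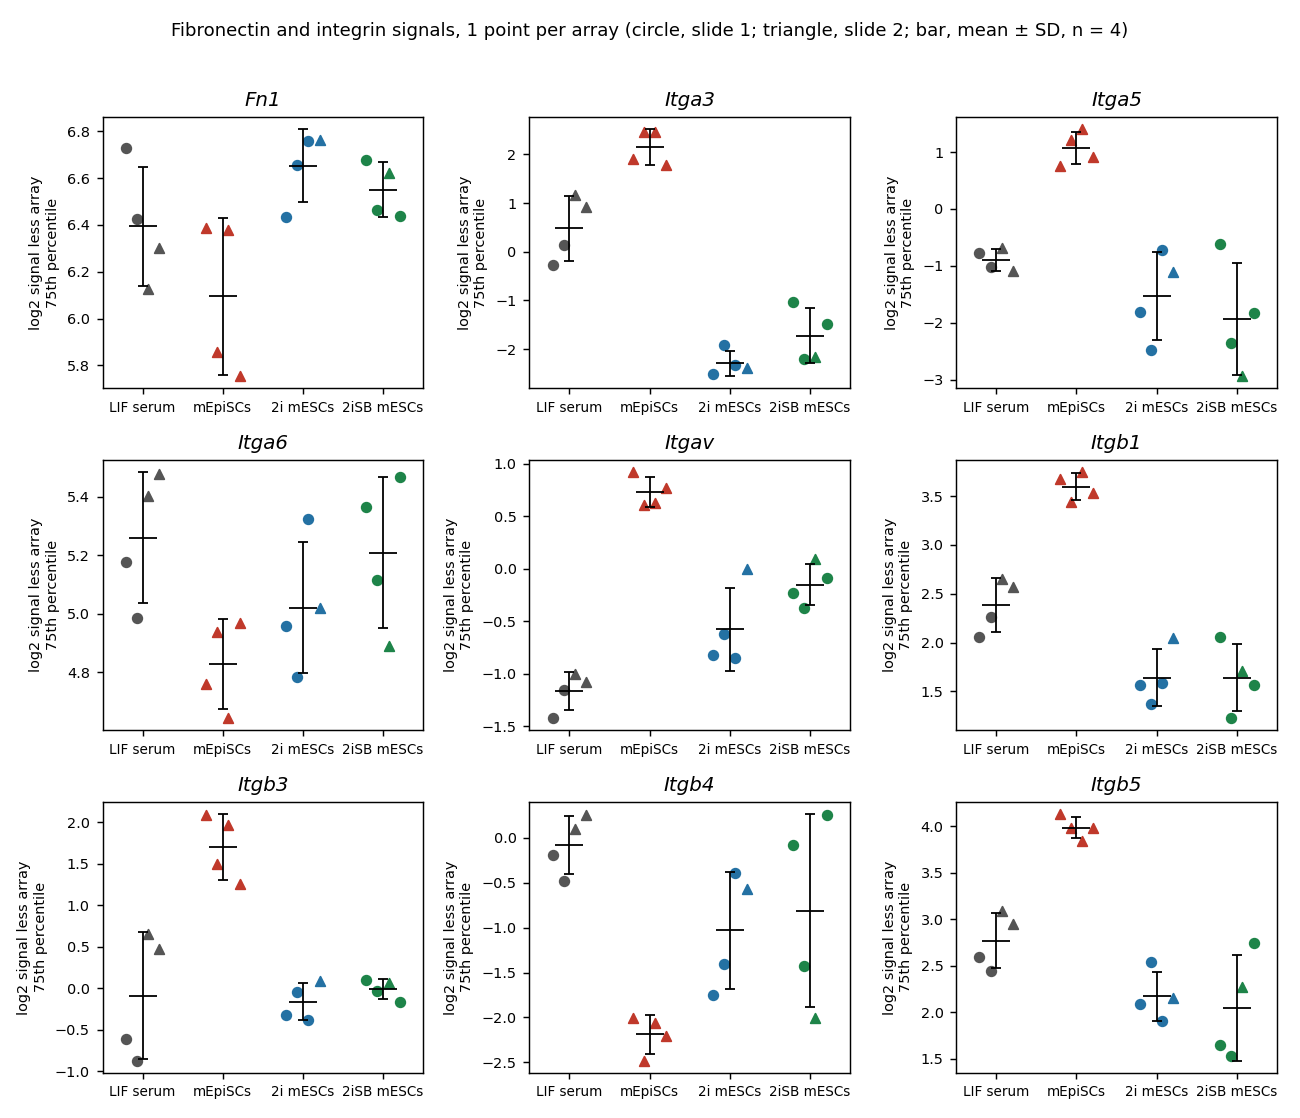
The log2 signal of each gene's first probe, less the array's 75th percentile, is plotted for every array in the 4 groups, with circles for slide 1, triangles for slide 2 and bars for the group mean ± SD (n = 4). The mEpiSC arrays sit above all others for Itga3, Itga5, Itgav, Itgb1, Itgb3 and Itgb5, and at or below all others for Itgb4; the y axes differ between genes.

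Fn1, the ligand, gave strong signals of similar size everywhere. Its log2 signals were 6.73, 6.43, 6.12 and 6.30 in LIF serum and 6.39, 5.86, 6.38 and 5.76 in mEpiSCs. In 2i mESCs they were 6.43, 6.66, 6.76 and 6.76, and in 2iSB mESCs 6.68, 6.47, 6.62 and 6.44. The LIF serum arrays overlapped with those of every other group, and the mEpiSC arrays lay below all ground-state arrays. The mEpiSCs minus LIF serum difference was -0.30 ± 0.18 (SE; 95% interval -0.67 to 0.07; adjusted p = 0.16, limma). Against mEpiSCs, Fn1 differed by 0.56 ± 0.18 in 2i mESCs (adjusted p = 0.014, limma) and by 0.46 ± 0.18 in 2iSB mESCs (adjusted p = 0.039), both short of 2-fold. These differences depended on the scaling: with arrays scaled on their median in place of the 75th percentile, the 3 differences became 0.24, 0.02 and -0.06, as that scaling moves the median of all genes for mEpiSCs minus LIF serum from 0.07 to 0.61. With the 75th-percentile scaling Fn1 had its lowest group mean, 6.09 ± 0.34 (SD, n = 4), in mEpiSCs. Alternative exons of fibronectin cannot be read from its single probe.

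Promoters of some of the members that rose in mEpiSCs are shown because their transcripts were all called higher there. RefSeq promoter windows on GRCm38.p6 were found for 5 of the 9 genes, Itga3, Itga5, Itgav, Itgb1 and Itgb5. For Itga3 (second of its 2 listed starts), Itga5, Itgb1 and Itgav, the 250 bases before the transcription start follow, 5′ to 3′ on the strand of the gene. They lie at chr11:95076715-95076964 (minus strand), chr15:103366792-103367041 (minus), chr8:128685404-128685653 (plus) and chr2:83724147-83724396 (plus). Capitals mark matches to a searched motif on either strand.

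Itga3: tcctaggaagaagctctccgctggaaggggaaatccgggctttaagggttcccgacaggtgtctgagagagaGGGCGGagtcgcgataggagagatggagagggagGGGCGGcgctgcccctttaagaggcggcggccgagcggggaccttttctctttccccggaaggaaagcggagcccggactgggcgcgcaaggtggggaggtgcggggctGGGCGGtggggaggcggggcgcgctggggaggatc

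Itga5: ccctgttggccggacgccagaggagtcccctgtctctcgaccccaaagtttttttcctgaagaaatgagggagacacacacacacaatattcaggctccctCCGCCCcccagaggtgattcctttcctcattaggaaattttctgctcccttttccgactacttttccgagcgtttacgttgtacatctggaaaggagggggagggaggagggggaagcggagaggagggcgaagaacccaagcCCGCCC

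Itgb1: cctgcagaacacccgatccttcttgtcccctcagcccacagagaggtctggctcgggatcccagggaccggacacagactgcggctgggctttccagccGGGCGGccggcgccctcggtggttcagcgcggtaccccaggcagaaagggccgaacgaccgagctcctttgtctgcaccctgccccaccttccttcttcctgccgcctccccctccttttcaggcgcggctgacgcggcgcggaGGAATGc

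Itgav: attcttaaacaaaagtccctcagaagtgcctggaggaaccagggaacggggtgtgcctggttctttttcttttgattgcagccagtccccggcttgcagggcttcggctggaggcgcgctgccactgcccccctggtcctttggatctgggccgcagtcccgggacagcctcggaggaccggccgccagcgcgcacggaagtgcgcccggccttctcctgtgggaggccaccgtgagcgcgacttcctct

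The motifs searched were the GC box GGGCGG, which SP1-type factors bind, an AP-1 site TGANTCA, a TEAD site GGAATG, an E-box CACGTG and a TATA box TATAAA, each on both strands. Itga3 held 3 GC boxes, Itga5 held 2, both as CCGCCC, Itgb5 held 3, and Itgb1 held 1 GC box and 1 TEAD match that ends 2 bases before the start. Itgav held no match, so it shared none of these letters with the others in this window. The window of the first listed Itga3 start, not shown, held 1 GC box. A GC box was present in 32.7% of all 32851 windows of the same length and a TEAD match in 12.6%. The letters G and C made up 50.8% and 67.6% of the Itga3 windows and 55.6% of that of Itga5. They made up 64.4% for Itgav, 68.0% for Itgb1 and 65.2% for Itgb5, against a median of 52.4% over all windows. AP-1, E-box and TATA letters, found in 6.75%, 6.02% and 12.4% of all windows, were absent from every member window, and no match overlapped another. A match describes letters, and its use in these cells was not measured.

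The 2 subunits of the fibronectin receptor, Itga5 and Itgb1, were both highest in mEpiSCs. Itga5 signals were -0.77, -1.03, -0.69 and -1.09 in LIF serum and 0.76, 1.21, 1.40 and 0.92 in mEpiSCs. They were -1.81, -2.48, -0.72 and -1.11 in 2i mESCs and -0.62, -2.36, -2.93 and -1.84 in 2iSB mESCs. All mEpiSC arrays lay above all the others, and LIF serum overlapped with both ground-state groups. Itga5 rose in mEpiSCs by 1.97 ± 0.43 against LIF serum (3.91-fold; adjusted p = 0.0013, limma). From mEpiSCs it fell by 2.60 ± 0.43 in 2i mESCs (6.08-fold; adjusted p = 0.00011) and fell by 3.01 ± 0.43 in 2iSB mESCs (8.06-fold; adjusted p = 2.7e-05, limma). Between 2iSB mESCs and LIF serum the difference of -1.04 had an adjusted p of 0.073 and a 95% interval of -1.96 to -0.13; without 2iSB mESC array 1 it was -1.48 and called (adjusted p = 0.006, limma).

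Itgb1, the beta subunit shared by most matrix-binding integrins, varied less among arrays. Its signals were 2.06, 2.27, 2.65 and 2.57 in LIF serum and 3.67, 3.44, 3.75 and 3.53 in mEpiSCs. They were 1.56, 1.37, 1.59 and 2.05 in 2i mESCs and 2.06, 1.23, 1.71 and 1.56 in 2iSB mESCs. The order was mEpiSCs, then LIF serum, then the 2 ground-state groups, which could not be told apart from each other. Itgb1 rose in mEpiSCs by 1.21 ± 0.20 against LIF serum (2.31-fold; adjusted p = 0.00013, limma), and by 1.00 on its second probe. From mEpiSCs to either ground-state group it fell by 1.96 ± 0.20, or 3.88-fold. Against LIF serum the ground-state difference was -0.75 ± 0.20 in both groups (adjusted p = 0.011 and 0.0098, limma), short of 2-fold. The arrays did not overlap, but for 2iSB mESCs only just, with array 1 at 2.057 and LIF serum array 1 at 2.0575. On slide 2 alone, against LIF serum arrays 3 and 4, the rise in mEpiSCs was 0.99, just under the threshold. The second probe gave -0.56 in 2i mESCs and -0.67 in 2iSB mESCs against LIF serum (adjusted p = 0.065 and 0.027, limma). On that probe 2iSB mESC array 1, at -0.16, lay above LIF serum array 4, at -0.31.

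Itgav, the alpha subunit of the vitronectin receptors, was the only member whose lowest group was LIF serum. Itgav signals were -1.42, -1.16, -1.0001 and -1.08 in LIF serum and 0.92, 0.61, 0.63 and 0.77 in mEpiSCs. They were -0.83, -0.62, -0.85 and -0.0018 in 2i mESCs and -0.23, -0.37, 0.10 and -0.09 in 2iSB mESCs. LIF serum lay below every array of every other group, mEpiSCs lay above, and the 2 ground-state groups lay between them and overlapped. Itgav rose by 1.90 ± 0.19 in mEpiSCs against LIF serum (3.73-fold; adjusted p = 9.7e-07, limma) and by 1.01 ± 0.19 in 2iSB mESCs (2.02-fold; adjusted p = 0.00087). In 2i mESCs it was 0.59 ± 0.19 above LIF serum with an adjusted p of 0.027 (limma). The 2iSB call lay at the threshold, and it was lost without LIF serum array 1, 2iSB mESC array 3 or 2iSB mESC array 4, with the difference between 0.93 and 1.09 over all single arrays left out. From mEpiSCs Itgav fell by 1.31 ± 0.19 in 2i mESCs (adjusted p = 2.6e-05, limma), and the value of -0.99 with a slide block ends that call. The second Itgav probe gave 1.55, 0.68 and 0.91 against LIF serum in mEpiSCs, 2i mESCs and 2iSB mESCs, the same order. Of these only the mEpiSC difference was called. Against mEpiSCs that probe gave -0.87 in 2i mESCs and -0.64 in 2iSB mESCs, neither called.

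Itgb3 and Itgb5, the beta partners of Itgav in the vitronectin receptors, both rose in mEpiSCs. Itgb3 signals were -0.61, -0.87, 0.65 and 0.47 in LIF serum and 2.09, 1.497, 1.96 and 1.25 in mEpiSCs. They were -0.32, -0.05, -0.38 and 0.09 in 2i mESCs and 0.10, -0.03, 0.06 and -0.16 in 2iSB mESCs. LIF serum split into a low pair, arrays 1 and 2, and a high pair, arrays 3 and 4, on either side of the ground-state arrays. Itgb3 rose by 1.79 ± 0.30 in mEpiSCs (3.46-fold; adjusted p = 0.00017, limma), by 2.44 against LIF serum arrays 1 and 2 alone and by 1.14 against arrays 3 and 4 alone. For the same reason its ground-state differences from LIF serum had no stable sign: 2i mESCs minus LIF serum was -0.08 ± 0.30, but 0.49 on slide 1 and -0.47 on slide 2. The second Itgb3 probe was dim, well above background on 1 of 4 LIF serum arrays, and gave 2.12 for mEpiSCs minus LIF serum.

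Itgb5 signals were 2.60, 2.44, 3.08 and 2.94 in LIF serum and 4.13, 3.98, 3.85 and 3.99 in mEpiSCs. They were 2.09, 2.54, 1.91 and 2.15 in 2i mESCs and 1.65, 1.52, 2.27 and 2.74 in 2iSB mESCs. The mEpiSC arrays were tightly grouped and above all others, and LIF serum overlapped with both ground-state groups. Itgb5 rose by 1.22 ± 0.24 in mEpiSCs (2.33-fold; adjusted p = 0.0007, limma), and on slide 2 alone the difference was 0.97. From mEpiSCs it fell by 1.81 ± 0.24 in 2i mESCs and fell by 1.94 ± 0.24 in 2iSB mESCs (adjusted p = 1.5e-05 and 7.7e-06, limma). Against LIF serum the 2i difference was -0.60 (adjusted p = 0.078) and the 2iSB difference -0.72 (adjusted p = 0.033), neither reaching 2-fold.

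Of the laminin-binding subunits, Itga3 had the widest range of the 9 genes. Its signals were -0.27, 0.14, 1.16 and 0.91 in LIF serum and 1.90, 2.45, 2.46 and 1.77 in mEpiSCs. They were -2.52, -1.92, -2.33 and -2.38 in 2i mESCs and -1.04, -2.20, -2.17 and -1.48 in 2iSB mESCs. The groups did not overlap, apart from 2i mESCs with 2iSB mESCs. Itga3 rose by 1.66 ± 0.33 in mEpiSCs against LIF serum (3.17-fold; adjusted p = 0.00062, limma). It fell by 2.77 ± 0.33 in 2i mESCs (6.83-fold; adjusted p = 3.4e-05) and fell by 2.20 ± 0.33 in 2iSB mESCs (4.61-fold; adjusted p = 0.00018, limma) against the same group. From mEpiSCs to 2i mESCs it fell by 4.44, or 21.6-fold. Within slide 1, which held no mEpiSC array, the ground-state differences from LIF serum were -2.19 and -1.504, both still called. Within slide 2, with 1 array of each ground-state group, they were -3.42 and -3.20, while the mEpiSC rise there was 1.11.

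Itga6, the other laminin-binding alpha subunit, stayed within a narrow band. Its signals were 5.18, 4.99, 5.40 and 5.48 in LIF serum and 4.76, 4.94, 4.64 and 4.97 in mEpiSCs. They were 4.96, 4.79, 5.32 and 5.02 in 2i mESCs and 5.37, 5.12, 4.89 and 5.47 in 2iSB mESCs. The LIF serum arrays all lay above the mEpiSC arrays, by a small gap, and all other pairs of groups overlapped. The mEpiSCs minus LIF serum difference was -0.43 ± 0.17 (1.35-fold; adjusted p = 0.042, limma), under the 2-fold threshold, and it was 0.10 with median scaling of the arrays. No Itga6 difference between any 2 groups was called.

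Itgb4, the partner of Itga6 in hemidesmosomes, was the member that fell in mEpiSCs. Its signals were -0.19, -0.48, 0.10 and 0.25 in LIF serum and -2.01, -2.48, -2.06 and -2.21 in mEpiSCs. They were -1.75, -1.41, -0.39 and -0.57 in 2i mESCs and -0.09, -1.42, -2.01 and 0.26 in 2iSB mESCs. LIF serum lay well above mEpiSCs, whereas the ground-state arrays spanned most of the distance between the 2, with an SD of 0.65 in 2i mESCs and 1.08 in 2iSB mESCs against 0.21 in mEpiSCs. Itgb4 fell by 2.11 ± 0.43 in mEpiSCs against LIF serum (4.31-fold; adjusted p = 0.00085, limma). It was higher than in mEpiSCs by 1.16 ± 0.43 in 2i mESCs (2.23-fold; adjusted p = 0.033) and by 1.38 ± 0.43 in 2iSB mESCs (2.60-fold; adjusted p = 0.014, limma), but neither call was kept when the slide was added as a block, nor with median scaling. Leaving out mEpiSC array 2, 3 or 4 or 2i mESC array 3 or 4 also ended the first call, and leaving out 2iSB mESC array 4 ended the second. On slide 2, with 1 array of each ground-state group, the 2i mESC array was 1.62 above mEpiSCs and the 2iSB mESC array 0.18 above.

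**Figure D2:**
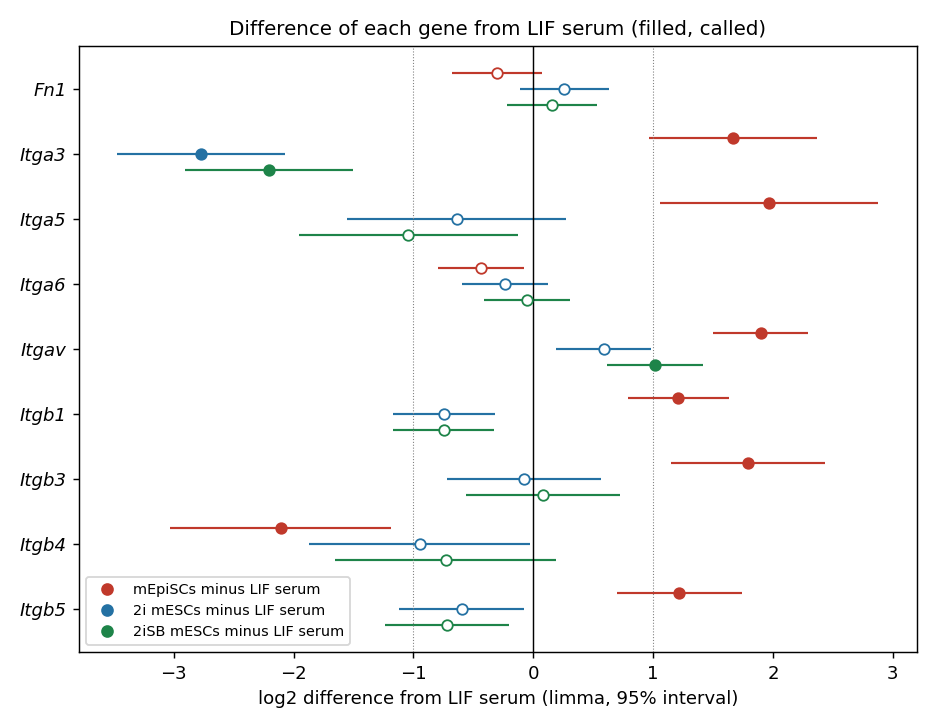
The limma difference of each gene from LIF serum on the log2 scale, with its 95% interval, is plotted for mEpiSCs, 2i mESCs and 2iSB mESCs; filled points were called, and dotted lines mark 2-fold. The mEpiSC points of Itga3, Itga5, Itgav, Itgb1, Itgb3 and Itgb5 lie between 1.21 and 1.97, Itgb4 lies at -2.11, and the ground-state points are called for Itga3 and, in 2iSB mESCs, Itgav.

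Counted over the 9 genes, 2i mESCs differed from LIF serum in 1 call, the lower Itga3, where 18.3% of all genes were called (12.1% lower and 6.26% higher). The 2iSB mESCs differed in 2, Itga3 lower and Itgav higher, against 20.1% of all genes (13.3% lower and 6.82% higher). These shares are near or below the background. In each of these comparisons 3 of 9 genes had arrays that did not overlap, against 27.2% and 29.6% of all genes. The 9-gene medians were -0.60 and -0.72, against 0.02 for all genes in both comparisons. Against mEpiSCs, 7 of 9 were called in 2i mESCs (6 lower and Itgb4 higher; 37.4% of all genes, 20.5% lower and 16.8% higher) and 6 of 9 in 2iSB mESCs (5 lower and Itgb4 higher; 36.3%, 20.1% and 16.2%). Median scaling of the arrays moves the higher share of all calls in these 2 comparisons from 45.1% and 44.6% to 25.2% and 25.5%. The arrays were apart for 8 of 9 and 7 of 9 genes, against 55.2% and 54.2% of all genes. The gene that made the difference between the 2 counts of calls was Itgav, at -1.31 in the former and -0.88 in the latter on its first probe. Its second probe gave -0.87 and -0.64, neither called. The comparisons with mEpiSCs and those with LIF serum share arrays, so the same arrays of 1 group enter several of these counts.

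The comparison of 2iSB mESCs with 2i mESCs, which differ by SB431542, gave 0 of 9 calls with limma, where 0.0838% of all genes were called (0.0129% higher and 0.0709% lower). The arrays of the 2 groups overlapped for every member, and for all but 2.15% of all genes. At an unadjusted p under 0.05 there was 1 member, Itgav, and the authors' deposited table put through the same model also gave 0 calls, and 1 at that unadjusted p. The Itgav difference was 0.43 ± 0.19 (95% interval 0.03 to 0.82; adjusted p = 0.84, limma). Itgb1 was within a narrow interval around no difference, -0.42 to 0.42, and Fn1 within -0.48 to 0.27. For Itga3 the interval was -0.13 to 1.27, for Itga5 -1.32 to 0.51 and for Itgb4 -0.71 to 1.14, and each of these 3 intervals includes a 2-fold difference.

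Spread within 2iSB mESCs was not the same for all members. For Itgb4, Itga3, Itga6 and Itga5, arrays 1 and 4 lay above arrays 2 and 3, and array 1 was the highest for Itga3 and Itga5. The labels give passages 22 and 24 for arrays 1 and 4, and 17 and 19 for arrays 2 and 3. With passage number in the model, the Itgb4 difference between 2iSB mESCs and LIF serum went from -0.73 to 0.027 and that of Itga3 from -2.20 to -1.77, the latter still called. Slide 2 held 2iSB mESC array 3 and 2i mESC array 4, and between these 2 arrays alone the difference was -1.82 for Itga5 and -1.43 for Itgb4, while on slide 1 the differences were 0.065 and 0.77. With 1 array on each side the former values have no replicates of their own, so they are given as differences only.

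Differences between genes on the same array are the same for any scaling that uses 1 factor per array, so their change between groups is given as a description, with pairs chosen after the values were seen. Between LIF serum and mEpiSCs, Itgb4 less Itgb1 changed by -3.32, from a mean of -2.47 ± 0.23 to -5.79 ± 0.10 (SD, n = 4), with no overlap. Over the same groups Itga5 less Fn1 changed by 2.27 and Itga3 less Itga6 by 2.10, again without overlap. In the ground state, Itga3 less Itga6 changed by -2.53 in 2i mESCs and -2.15 in 2iSB mESCs against LIF serum. Itgav less Itgb1 was lowest in LIF serum, at -3.55 ± 0.12, and changed by 0.69 in mEpiSCs, 1.33 in 2i mESCs and 1.76 in 2iSB mESCs. That difference did not overlap between LIF serum and any other group, and it placed the ground-state cultures beyond mEpiSCs.

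**Figure D3:**
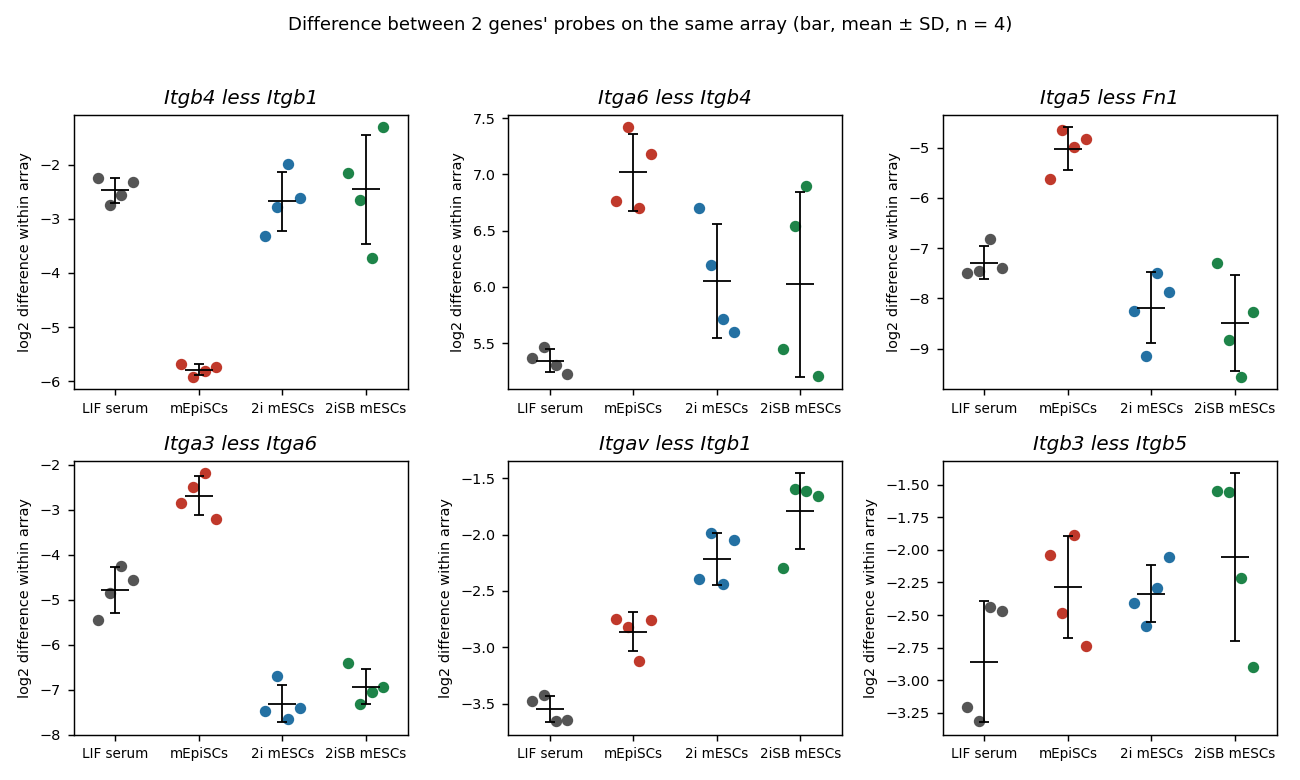
The difference between the log2 signals of 2 genes on the same array is plotted for each array, with bars for the group mean ± SD (n = 4); only shifts between groups can be read, since the absolute height depends on the probes. Itgb4 less Itgb1 is about 3.32 lower in mEpiSCs than in LIF serum, and Itgav less Itgb1 climbs from LIF serum through mEpiSCs and 2i mESCs to 2iSB mESCs.

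Fibroblast markers moved with several of these results. Of the 20 markers, 16 were called higher in mEpiSCs than in LIF serum, and 15 and 16 were called lower in 2i and 2iSB mESCs than in LIF serum. Within LIF serum, the fibroblast sum was 146 and 115 on arrays 1 and 2 and 19.8 and 21.6 on arrays 3 and 4, and the endoderm and trophectoderm sums were higher on arrays 3 and 4. From the first pair to the second Itga3 went up by 1.104, Itgb3 by 1.30, Itgb5 by 0.49 and Itgb1 by 0.45. Itgb4 went up by 0.51, Itga6 by 0.36, Itgav by 0.25 and Itga5 by 0.01, and Fn1 changed by -0.37. These pairs also differ by slide and by code. Against arrays 3 and 4 alone, 5 of the 9 members were called in mEpiSCs, Itga3, Itga5, Itgav, Itgb3 and Itgb4, with Itgb1 at 0.99 and Itgb5 at 0.97. Of all 15510 genes tested, 5306 were called in that comparison, 2792 of them higher. The part of fibroblasts, or of endoderm or trophectoderm cells, in the integrin and Fn1 signals was not tested.

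**Figure D4:**
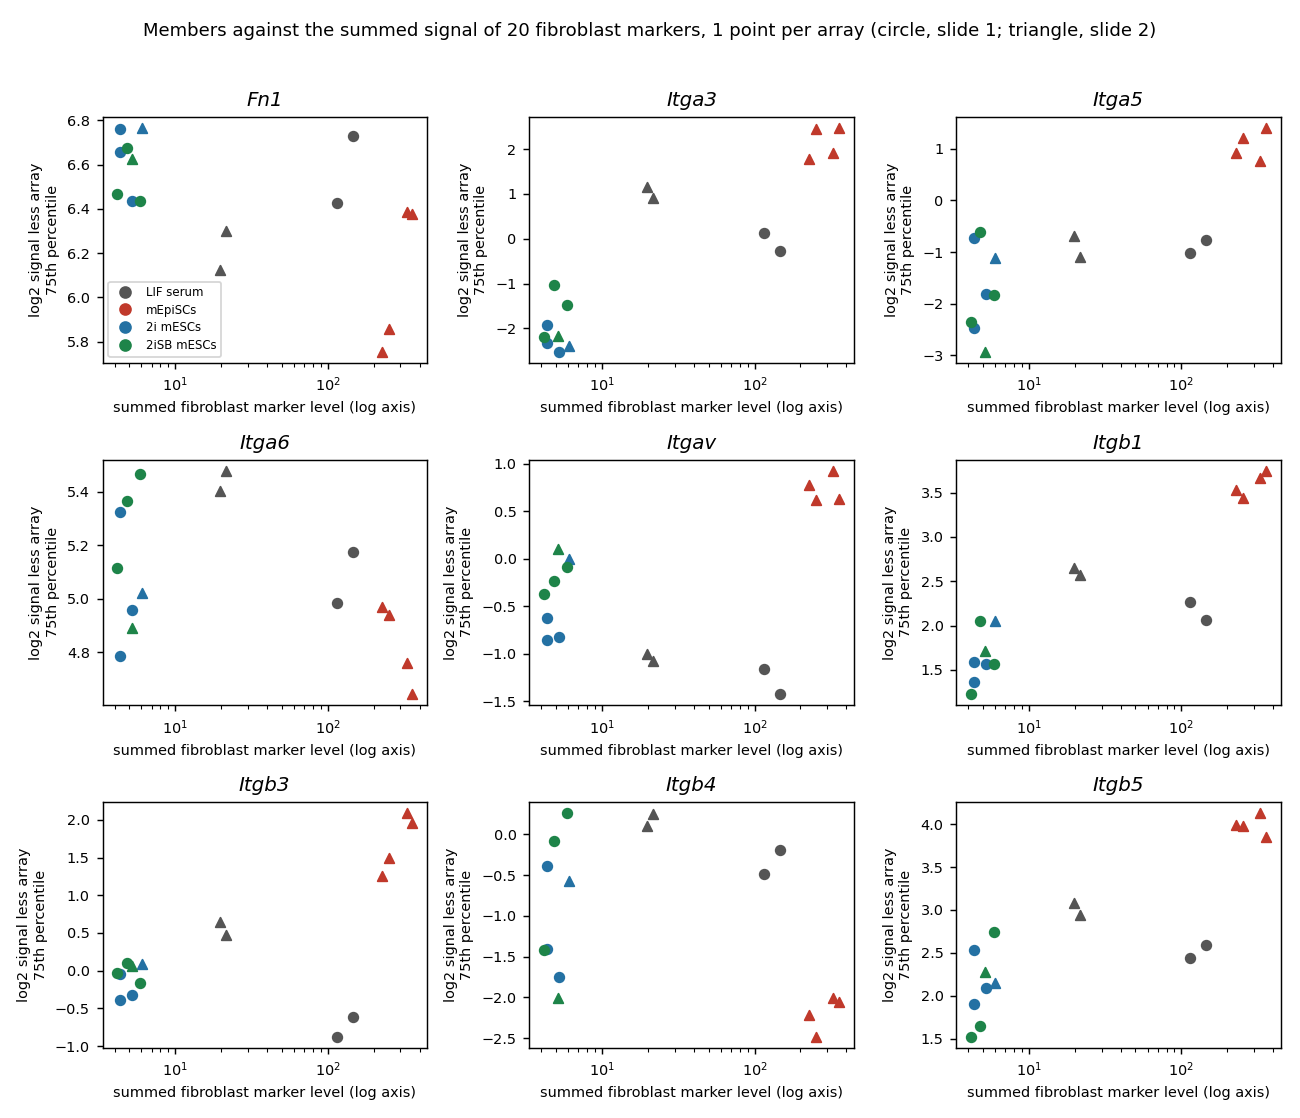
The log2 signal of each gene is plotted against the summed signal of 20 fibroblast markers (in units of the array's 75th percentile, log axis), 1 point per array, with circles for slide 1 and triangles for slide 2. The mEpiSC arrays have both the highest marker sums, 227 to 358, and the highest signals of 6 integrin subunits, while LIF serum arrays 3 and 4, at sums of 19.8 and 21.6, have higher Itga3 and Itgb3 than LIF serum arrays 1 and 2.

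The wider pathway was read from 5 lists of 95 genes, of which 92 had a probe and 88 were tested. In mEpiSCs against LIF serum 36 rose and 11 fell, where 18.0% of all genes were called higher and 15.6% lower. In 2i mESCs against LIF serum 2 rose and 30 fell, against 6.26% and 12.1% of all genes, and in 2iSB mESCs 1 rose and 29 fell, against 6.82% and 13.3%. The same shares are the background of each list that follows. The list medians were 0.70, -0.53 and -0.40, against 0.07, 0.02 and 0.02 for all genes. Between 2iSB and 2i mESCs limma called 0 of the 88, with 12 at an unadjusted p under 0.05.

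Among 13 other integrin subunits tested, of 18 listed, 5 rose and 3 fell in mEpiSCs (18.0% and 15.6% of all genes), while the median difference over the list was -0.57, opposite in sign to the balance of calls. Itgb7, the beta chain of lymphocyte homing integrins, fell by 5.23 ± 0.47, the widest gap of the list. Itgal and Itgb2, which pair as the leukocyte receptor LFA-1, fell as well, with differences of -1.95 and -1.17. Itgb8, a further partner of Itgav, and Itga4, a receptor chain for fibronectin and Vcam1, were well above background on all mEpiSC arrays and on none in LIF serum, and were at least 1.97-fold and 3.32-fold higher. Itga8, which binds RGD ligands, rose by 2.24 and Itga7, a laminin receptor chain of muscle, by 1.32. Itga2, a collagen receptor chain, was called as well, but no fold can be given against a group at background. Itga2b, the platelet partner of Itgb3, differed by -1.01 (adjusted p = 0.075, limma). In 2i mESCs 6 of the 13 fell (12.1% of all genes) and 0 rose. Itga11, a collagen receptor chain of fibroblasts, fell by 5.91, being above background on 1 of 4 arrays, and Itga7 fell by 1.54. The Itga7 difference was -0.23 in 2iSB mESCs (adjusted p = 0.63), where 4 subunits fell (13.3% of all genes).

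**Figure D5:**
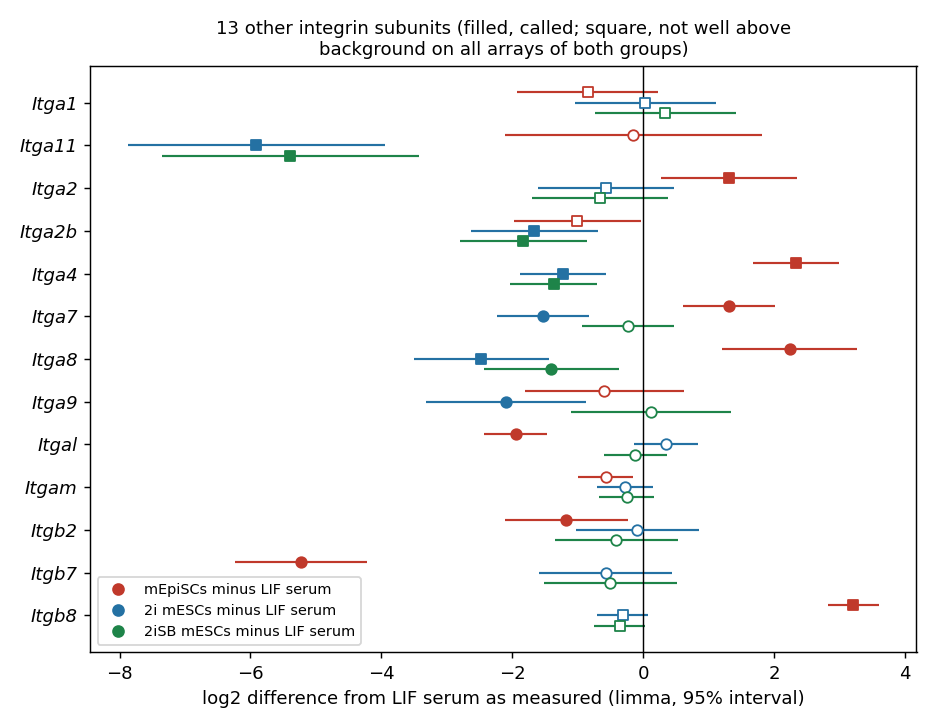
The limma difference from LIF serum on the log2 scale, with its 95% interval, is plotted for 13 other integrin subunits; filled points were called, and squares mark genes that some array of either group read as not well above background. Itgb7 lies at -5.23 in mEpiSCs and near LIF serum in the ground-state groups, while Itga11 lies at -5.91 and -5.39 in the ground-state groups.

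Of 30 ligands other than fibronectin that were tested, 17 rose and 2 fell in mEpiSCs against LIF serum, where 18.0% and 15.6% of all genes did. In 2i mESCs 18 fell and in 2iSB mESCs 17, against 12.1% and 13.3% of all genes, with none called higher in either; medians were 1.33, -2.08 and -2.15. Vtn, the vitronectin bound by the alphaV integrins, was above background on all mEpiSC arrays and no LIF serum array, at least 7.12-fold higher. Tnc, a tenascin, and Vcam1, a cell-surface ligand of Itga4, rose by 4.72 and 4.39, from LIF serum signals that were well above background on 2 and 3 of 4 arrays. Lama1, the alpha chain of the early embryonic laminin, fell by 5.15 ± 0.39 and Lama3 fell by 1.07. The chains Lamb1, Lamc1 and Lama5, which are shared by many basement membrane laminins, differed by 0.25, -0.05 and 0.35 (adjusted p 0.56, 0.90 and 0.28, limma). In 2i and 2iSB mESCs Lamb1 fell, at -2.81 and -3.30, and so did Lama5, at -1.83 and -1.53, while Lamc1 differed by 0.11 and -0.02. Thbs1, a thrombospondin, was not well above background there on any array and was at least 231-fold lower in 2i mESCs and at least 233-fold lower in 2iSB mESCs. Col4a1, of basement membrane collagen, fell in those groups, at -2.63 and -3.13, and differed by 1.40 in mEpiSCs (adjusted p = 0.055, limma). Col1a1 and Postn, which are in the fibroblast list too, rose by 2.31 and 3.81 in mEpiSCs, and Col1a1 fell in the ground-state groups, at -5.22 and -6.14.

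Inside the cell, 10 of 30 adhesion adaptors and kinases rose and 3 fell in mEpiSCs, against 18.0% and 15.6% of all genes. Nedd9, a docking protein, Zyx, the focal adhesion protein zyxin, and Parva, which binds the kinase Ilk, rose by 2.90, 2.79 and 2.21, Nedd9 from a LIF serum signal above background on 2 of 4 arrays. The focal adhesion genes Vcl, Ilk and Ptk2, for vinculin, integrin-linked kinase and focal adhesion kinase, rose by 1.78, 1.73 and 1.17. Tln1 and Fermt2, the talin and kindlin that switch integrins on, differed by 0.56 and 0.47 (adjusted p = 0.0084 and 0.004, limma), short of 2-fold. Fermt3, the kindlin of blood cells, Parvb and Ptk2b fell, at -1.63, -1.24 and -1.07, and Fermt1 was not tested. In the ground state 4 of 30 were called in 2i mESCs and 5 in 2iSB mESCs, near the 18.3% and 20.1% of all genes. Zyx fell there, at -2.50 and -2.77, and Lpp, its relative, at -3.48 and -2.12. Sdc4, a syndecan that acts with Itga5 and Itgb1 on fibronectin, rose by 1.09 and 1.18, and in mEpiSCs differed by -0.58 (adjusted p = 0.092, limma).

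Among 10 genes of fibronectin assembly and splicing, 3 rose and 2 fell in mEpiSCs, with the same background. Esrp2 and Esrp1, splicing regulators of epithelial cells, fell, at -3.72 and -3.33, and Sdc2 and Plaur, the urokinase receptor, rose by 2.87 and 2.60. In 2i and 2iSB mESCs Esrp1 fell, at -5.03 and -4.58, and Plaur too, at -2.56 and -3.35, while Esrp2 differed by -0.65 and -0.34 (adjusted p = 0.085 and 0.36, limma). Of 7 genes listed as integrin regulators, Filip1l and Dok1 rose by 2.46 and 1.18 in mEpiSCs and Kank2 fell by 1.17. Filip1l fell by 3.59 in 2i mESCs and was at least 10.8-fold lower in 2iSB mESCs. Fblim1, the filamin-binding protein migfilin, rose by 1.43 in 2i mESCs.

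The genes whose signals over the 16 arrays were most like each member were sought among the 11758 genes that all 16 arrays read as well above background. Since the arrays form 4 groups of 4, these correlations mostly reflect group means. Itgb1 was closest to Ankrd13b (Pearson r = 0.984), Nfkb2 and Fbxo4, and Itga3 to F3 (r = 0.979), the tissue factor of blood clotting, Ramp3 and Cnppd1. Itga5 was closest to Lrfn4 (r = 0.974), Fkbp7 and Madcam1, and Itgav to Slc35c1 (r = 0.973), Erbb2 and Acvr1. Itgb3 was closest to Ndst1 (r = 0.966), Mgat1 and Tmbim6, and Itgb5 to Rab32 (r = 0.953), Armcx6 and Irs2. Itgb4 and Itga6 shared Doc2a among their 3 nearest genes (r = 0.917 and 0.910), beside Tnk1 and Sec14l4 for the former and Odf2 and Igsf21 for the latter. Fn1 had the loosest match, En2 (r = 0.879), then Serpina3i and Zfp786. Between Itga6 and Itgb4 themselves r was 0.846 over the 16 arrays.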

How the data were processed

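Per the file headers, the intensity values came from the scanner software Agilent Feature Extraction (version 10.7.1.1), whose processed signal, background-subtracted, was used. The authors also deposited a table of log2 values for 42316 probes, made with limma and Feature Extraction per the submitters' processing notes, with a normalization that the sources used here do not state; each column correlated with the scanner log2 values at 0.989 to 0.994, over a similar scale (slope 0.882 to 0.996). It was used only as an alternative.

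The array header names build mm9. Probes were named through RefSeq accessions and a gene list of the GRCm38.p6 assembly, which gave 27656 probes with 1 symbol, 0 several and 28025 none. Control spots and outlier spots (100 to 321 per array) were left out, and 432 probes with several spots were averaged. Per array, 51.5% to 63.9% of probes were well above background (the scanner software's call), 0 spots were saturated, and the 75th percentile of the signal was 646 to 1039.

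The 75th percentile of each array was subtracted on the log2 scale. Genes entered the test if a probe passed background throughout at least 1 group, and the brightest probe stood for the gene. The 4 group means were fitted over 16 arrays with limma 3.58.1 in R 4.3.3 (lmFit, eBayes; data.table version 1.17.8, jsonlite 2.0.0), checked on simulated data. SE is limma's standard error. A fold against a group not well above background on any array is a lower bound, taken against the higher of each array's lowest well-above-background signal and the probe's own. The number of arrays limits the precision.

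The members and lists were chosen with earlier results of these data known. All members are named, and of the pathway lists the 3 largest called rises and falls of each list first, with 16 further genes fixed by name. Replicate numbers did not pair the arrays: same-numbered arrays' deviations correlated at -0.60 to 0.40 (median -0.04). The normexp alternative (offset 50) used the median spot signal, since the files hold no mean signal.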

Additional observations from a re-analysis of the deposited data

Results flagged for a closer look

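In 3 of 48 groups of 4 arrays (12 probes in 4 groups), 1 array lay apart from the others by Dixon's criterion for 4 values, which sets the gap to the nearest array against the group's range, and chance alone marks about 1 in 20 groups. Each case was the second, dimmer probe of its gene, and the first probe showed no such array. The second Itgav probe read -1.31 on mEpiSC array 4, with the other 3 arrays at -0.85 to -0.80. The second Itgb1 probe read -0.31 on LIF serum array 4, against -0.07 to -0.04 on the others. The second Itgb3 probe read -3.16 on LIF serum array 1, the only LIF serum array on which it was well above background, against -5.64 to -5.24.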

How the results depend on the processing

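With 4 arrays a group and slides uneven between groups, the precision is limited: no LIF serum, 2i or 2iSB group has more than 2 arrays on slide 2, and mEpiSCs have none on slide 1, so slide 1 gives no value for them. Within-slide fits with 1 array on a side assume that it varies like the others. Over the members' differences, 981 alternative values kept their direction and their side of the threshold, 26 lost the call, 6 gained one and 40 turned sign; none of the 40 had been called, and where nothing is said below the cause was not tested.

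Counts of members called moved as follows. For 2iSB mESCs minus LIF serum the count was 1 with normexp and with the mean over a gene's probes. It was also 1 against LIF serum arrays 3 and 4 alone, and 1 to 3 when 1 array at a time was left out. Within slide 2, with 1 array of each ground-state group, no counts against LIF serum are given. There the 2iSB mESCs minus LIF serum difference was -2.04 for Itga5 and -2.18 for Itgb4. For 2iSB minus 2i mESCs slide 2, with 1 array a side, gave 2 members and 24 pathway genes. Calls over all genes also rose far above those of the full set of arrays in that slide 2 fit. With no replicates on either side, no effect of SB431542 on adhesion genes is read from these counts. Leaving out 1 array at a time gave 7 members throughout for mEpiSCs minus LIF serum, 6 to 7 for 2i mESCs minus mEpiSCs and 5 to 6 for 2iSB mESCs minus mEpiSCs. With the replicate number as a block, all counts of members were as before, for example 7 for mEpiSCs minus LIF serum, and no member's call changed; the arrays share only a number.

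Calls lost or gained were those of Itgb4, Itgav, Itgb1, Itgb5 and Itga5. Itgb4 in 2i mESCs minus mEpiSCs became 0.94 with normexp, 0.62 with median scaling, and 0.93 with quantile normalization and in the authors' deposited table. Itgav in 2iSB mESCs minus LIF serum became 0.85 with normexp, 0.96 with the mean over probes and 0.89 against arrays 3 and 4. Itgav in 2iSB mESCs minus mEpiSCs became -1.40 with median scaling, a call gained, and Itgav in 2i mESCs minus LIF serum 1.04 within slide 2.

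Values that turned sign were these. With median scaling Fn1 was 0.24 for mEpiSCs minus LIF serum and -0.064 for 2iSB mESCs minus mEpiSCs, Itga6 was 0.10, -0.35 and -0.14 for mEpiSCs minus LIF serum and for 2i and 2iSB mESCs minus mEpiSCs, and Itgb1 was 0.017 for 2iSB minus 2i mESCs. For 2iSB mESCs minus LIF serum, Fn1 was -0.051 within slide 1, -0.026 against arrays 1 and 2 and -0.077 with passage, Itga6 was 0.23, 0.13 and 0.24 in the same order, and Itgb4 was 0.027 with passage. Itgb3 was -0.50 within slide 2 and -0.57 against arrays 3 and 4 in that comparison, and for 2i mESCs minus LIF serum 0.087 with the slide as a block, 0.49 within slide 1 and 0.57 against arrays 1 and 2. For 2iSB minus 2i mESCs, slide 1 gave 0.065 for Itga5 and 0.11 for Itgb1, slide 2 gave -0.13 for Itga6, -0.035 for Itgb3, -1.43 for Itgb4 and 0.13 for Itgb5, and passage gave 0.11 for Itgb1 and 0.057 for Itgb5. Leaving out 1 array at a time gave ranges that cross 0 for Itgb1 (-0.14 to 0.14), Itgb4 (-0.14 to 0.61) and Itgb5 (-0.36 to 0.050) in that comparison, for Itga6 (-0.14 to 0.055) and Itgb3 (-0.18 to 0.33) in 2iSB mESCs minus LIF serum, and for Itgb3 (-0.34 to 0.17) in 2i mESCs minus LIF serum.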
